A study of Mus with 9 samples.

Results

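The comparison described here sets all 6 infarcted libraries of the series against its 3 sham libraries, whatever drug the infarcted mice had received. It uses 9 of the 9 libraries: MI 2, MI 3 and MI 4 (infarction with vehicle), MI_ART 1 to 3 (infarction with artesunate, an antimalarial artemisinin derivative) and Sham 1 to 3 (sham surgery with vehicle). The grouping follows the surgery named in the labels and no measured value, and it takes in all 19326 genes that passed the filter on low counts. It asks what infarction does in both arms together, including changes too small for 3 libraries against 3.

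All mice were male wild-type C57BL/6J animals aged 8 to 10 weeks and weighing 20 to 23 g, and the left anterior descending coronary artery was tied permanently in the infarcted groups. The labels disagree on the drug: 25 mg/kg daily for 7 days from surgery in one place, and in another 10 mg/kg every other day from 2 days before surgery to day 7. The tissue is labelled atria, or left atrium, the harvest day is not stated, and the animals are called rats in one field. The title of every Sham library begins with CON and ends in AF, and no title of an infarcted library has that ending. The ending follows the same split as the surgery, and its part in the results was not tested. Nothing in the labels says that each library is a separate animal, so p-values cover only the spread among these 9 samples, which may be technical.

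When a coronary artery is closed, the muscle it feeds dies, and neutrophils and then monocyte-derived macrophages clear the debris. Fibroblasts divide, take on a contractile form and lay down collagen, which needs a large secretory apparatus of endoplasmic reticulum, glycosylation enzymes and collagen-modifying enzymes. Surviving heart muscle, whose volume is packed with mitochondria that burn fatty acids, is known to lower its oxidative genes, and the atria are stretched and loaded behind the failing ventricle.

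Total counts ranged from 68046341 to 83685313 per library, and 3 features of the libraries bear on what follows. First, MI 4 stood apart: the chi-square per gene was 588 and 475 against the other MI libraries, while all other pairs of the same group gave 65.1 to 131. Second, the chambers differed. The atrial light chain Myl7 stood at 168 to 822 CPM (counts per 1e+06 of the scaled library size) in Sham and at 173 to 989 CPM in 5 infarcted libraries, but at 1.96 CPM in MI_ART 3, where the atrial light chain Myl4 was at 6.21 CPM. The ventricular light chain Myl2 was abundant in all 9 libraries, at 2967 to 3786 CPM in Sham and 455 to 1537 CPM in infarcted libraries, so the libraries labelled atria all held RNA of a ventricular marker. In addition, Sham 1 held airway transcripts: Scgb1a1, a secretory protein of airway club cells, was at 123 CPM there and at no more than 0.0750 CPM in each of the other 8 libraries. Results that move with these libraries are given with and without them.

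In all, 3571 genes were higher in infarcted than in sham libraries (18.5% of those tested) and 2766 were lower (14.3%), by edgeR's quasi-likelihood test at a Benjamini-Hochberg adjusted p under 0.05. Tested against a change of 1.5-fold, 2088 were higher (10.8%) and 881 lower (4.56%). For 3964 genes (20.5%) all 6 infarcted libraries lay above all 3 Sham libraries, and for 3491 (18.1%) all lay below, so 38.6% did not overlap in either direction. The higher side therefore held most of the large changes, while the lower side was made of many modest ones: 1516 of the 2766 lower genes and 944 of the 3571 higher genes had an absolute log2 fold change under 1. The gene lists described below are set against these shares.

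These values rest on trimmed-mean scaling (TMM), which takes the bulk of genes as level, and mitochondrially encoded genes gave 37.7% to 43.1% of all counts in Sham and 12.6% to 25.5% in infarcted libraries. The means were 40.1% ± 2.80 (SD, n = 3) and 20.6% ± 4.59 (SD, n = 6), with p = 0.0238 by a two-sided exact permutation test, the lowest value 9 libraries split 6 and 3 can reach (0.0504 after Benjamini-Hochberg adjustment over 36 values per library). Dividing by total counts instead moved the median log2 fold change of all genes from 0.03 to 0.83, and leaving mitochondrially encoded genes out of the totals moved it to 0.42. The split of calls then moved from 56.4% higher to 96.3% and 85.6% higher. Levels below are therefore relative to the bulk of genes in the library, and lists whose median crosses 0 under total counts are named with that value.

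**Figure D1:**
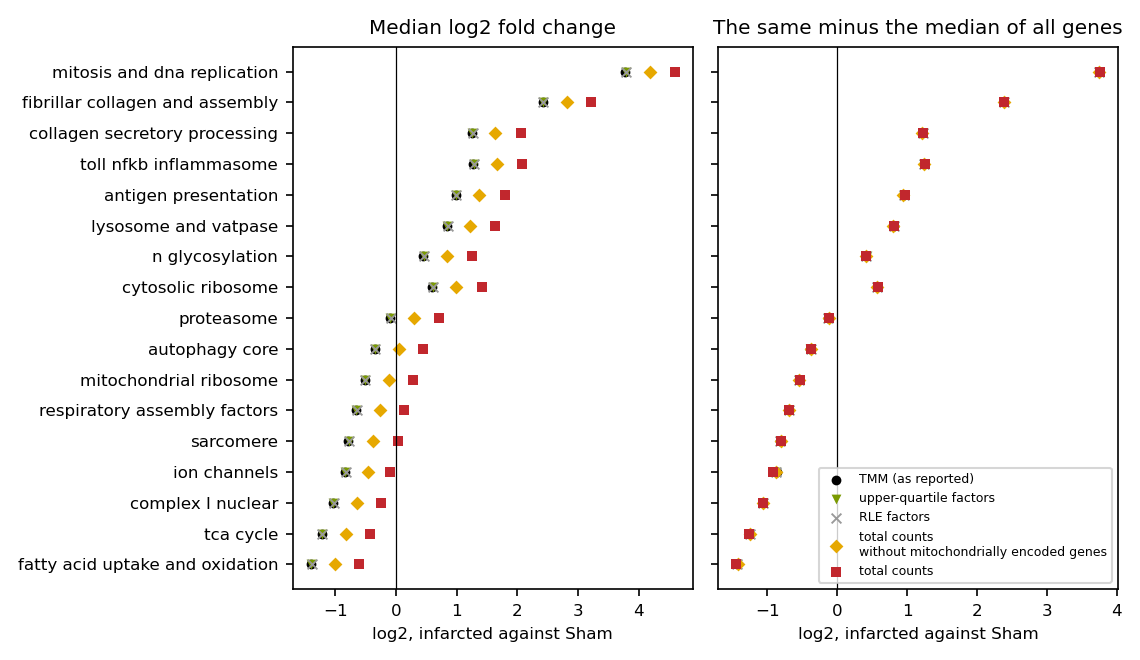
Median log2 fold change, infarcted against Sham, of 17 gene lists under 5 scalings (left, log2 units) and the same after subtracting the median of all tested genes under that scaling (right). On the left the medians shift to the right under total counts, the autophagy list from -0.35 to 0.45, and on the right the 5 symbols of a list nearly coincide.

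Several of the genes with the smallest p values are made by macrophages, activated fibroblasts or dividing cells. Hmox1 (chr8:75093618-75100593, GRCm38), the haem-degrading enzyme heme oxygenase 1, stood at 10.4 to 11.5 CPM in the 3 Sham libraries and at 232 to 441 CPM (median 303) in the infarcted libraries, a log2 fold change of 4.85 with an SE of 0.27 (adjusted p = 2.5e-05), and errors of log2 values below are SEs. Tnc (chr4:63959785-64047015), the wound matrix glycoprotein tenascin C, was at 1.60, 1.90 and 0.651 CPM in Sham and at 124 to 217 CPM (median 169) after infarction, a change of 6.92 ± 0.41. In both genes the 6 infarcted libraries sat close together and far above every Sham library, with vehicle and artesunate libraries intermixed.

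Pik3r5, a regulatory subunit of the phosphoinositide 3-kinase of white blood cells, was at 0.940, 1.54 and 1.07 CPM in Sham and rose to 12.4 to 21.7 CPM (median 19.1), by 3.98 ± 0.27 on the log2 scale. Ccr2, the chemokine receptor of recruited monocytes, rose from 4.13, 4.72 and 6.59 CPM to between 51.9 and 71.0 CPM (median 63.4). Serpinb1a, an inhibitor of neutrophil proteases, rose from 4.63, 4.64 and 4.94 CPM to between 47.2 and 81.0 CPM (median 54.1). No Sham library of these 3 genes came near the lowest infarcted one. Genes of cell division were also among those with the smallest p values: Pclaf, a clamp-associated DNA replication factor, was at 0.221, 0.355 and 0.460 CPM in Sham and 12.2 to 27.0 CPM (median 19.7) after infarction, and Cenpe, a kinetochore motor, rose by 4.66 ± 0.29. Leaving out any 1 of the 9 libraries kept the calls of all 7 genes, with adjusted p values of at most 0.00044.

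A further 231 called genes had no count in any Sham library, and no called gene was without counts in all infarcted libraries. These counts cannot be set against each other, since 3 libraries reach 0 more easily than 6. Genes without Sham counts also passed the filter on low counts through the infarcted libraries alone. Measured against a floor of 3 counts in each Sham library, Apoc2, an apolipoprotein that activates lipoprotein lipase, was at least 136-fold higher, at 3.71 to 10.8 CPM (median 8.02) in infarcted libraries. Marco, a scavenger receptor of macrophages, was at least 149-fold higher, at 2.04 to 16.6 CPM, and Depdc1a, a factor of mitosis, at least 126-fold higher, at 3.56 to 12.1 CPM. Hpca, a neuronal calcium sensor, also passed (adjusted p = 0.026), but it stood at 14.6 CPM in MI_ART 1 and at 0.250 to 0.751 CPM in the other 5, and it lost its call when any 1 Sham library was left out (adjusted p up to 0.076). Sprr1a, a stress-induced protein of heart muscle and squamous epithelium, was all but absent from Sham (0 to 0.316 CPM) and reached 95.1 to 396 CPM (median 120).

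The 10 lower genes with the smallest p values changed by less than the 10 higher ones did. Gstk1 (chr6:42245935-42250441), a glutathione transferase of mitochondria and peroxisomes, fell from 81.6, 86.6 and 102 CPM in Sham to 20.3 to 35.9 CPM (median 27.5), a log2 fold change of -1.70 ± 0.18 (adjusted p = 9.0e-05). Chchd7 (chr4:3938840-3951383), a small protein of the mitochondrial intermembrane space, fell from 44.7, 36.7 and 39.4 CPM to 15.7 to 19.3 CPM (median 17.5), by 1.21 ± 0.13 on the log2 scale. Infarcted libraries of Chchd7 were nearly level with one another, and none overlapped Sham. Mitochondrially encoded genes were among the smallest p values too: mt-Nd6, a complex I subunit, fell from 15294, 14055 and 17937 CPM to 3455 to 5191 CPM (median 4491), a change of -1.84 ± 0.16. It lies opposite other mitochondrial transcripts, and with no strand setting in the sources used here its reads cannot be told apart from theirs.

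Genes with large falls ranged in level. Cyp1a1, a detoxifying cytochrome, was at 1.59, 1.62 and 2.03 CPM in Sham and at 0 to 0.200 CPM in infarcted libraries, with no count in most of them. Inmt, a methyltransferase of small amines, fell from 33.9, 28.1 and 32.9 CPM to 0.311 to 6.26 CPM (median 1.31), by 4.05 ± 0.74. The infarcted libraries of Inmt spread widely, with MI_ART 2 highest, yet none reached Sham. Acsm5, a mitochondrial medium-chain acyl-CoA synthetase, fell by 3.26 ± 0.51 from 6.29, 9.52 and 7.99 CPM. Cdhr3 and Cfap54, genes of ciliated airway cells, fell by 3.18 ± 0.53 and 3.12 ± 0.59, and both were highest in Sham 1, the library with airway transcripts, at 1.86 and 1.95 CPM; without Sham 1 both calls still passed, since no leave-one-out fit of them gave an adjusted p above 0.031. The part of the airway material in those values was not tested.

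**Figure D2:**
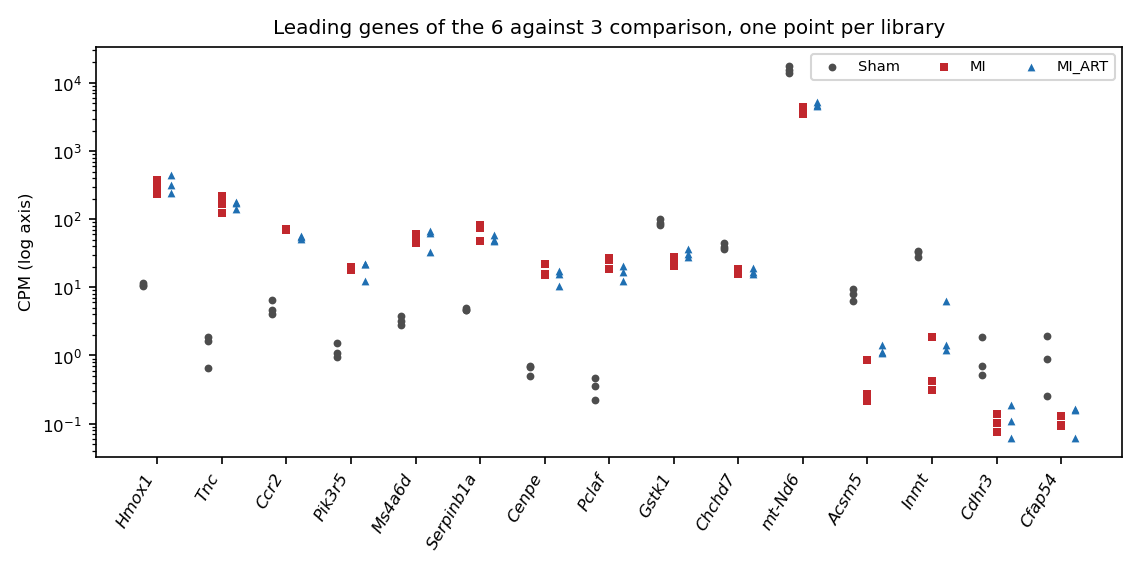
CPM (log axis) of 15 leading genes in each library, with 1 point per library: circles for Sham, squares for MI and triangles for MI_ART. In the 8 genes on the left every infarcted library lies above every Sham library, and in the 7 on the right every one lies below.

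The matrix list (fibrillar collagens and their assembly partners) was among the most uniform: 23 of 25 tested members were higher and none lower, with a median log2 fold change of 2.41, against 18.5% of genes higher and a median of 0.03 over all tested genes. Col3a1, collagen III, rose from 442, 353 and 310 CPM in Sham to 3373 to 4300 CPM (median 3894), by 3.40 ± 0.20. Of 10 markers of activated fibroblasts 8 were higher, and their summed level was 239 to 744 CPM in Sham and 1320 to 2194 CPM in infarcted libraries. Tnc is on both lists. Of 10 markers of resting fibroblasts 1 was higher and 3 were lower. Their sum was 2286 to 2493 CPM in Sham, where Gsn made 1846 to 2066 CPM, and 705 to 1780 CPM in infarcted libraries. In bulk tissue more cells of a type and more RNA per cell cannot be told apart, and the part of cell numbers was not tested.

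Enzymes that finish and cross-link collagen were higher beside the collagens. In the list of collagen processing 17 of 25 were higher and none lower (median 1.25). P4ha3, a prolyl hydroxylase subunit, rose from 0.111, 0.0987 and 0.249 CPM to 4.65 to 19.5 CPM (median 8.33), by 5.97 ± 0.60. It passed the filter on low counts through the infarcted libraries, so its call adds nothing to the count of this list. Adamts2, which trims the amino end of procollagen, rose by 2.03 ± 0.21, and Bmp1, which trims the other end, by 1.92 ± 0.27, both with MI 4 highest. Creb3l1, a membrane-bound transcription factor of collagen secretion, rose by 2.66 ± 0.33 from 2.93, 2.01 and 2.22 CPM. Basement membrane genes changed less: 7 of 17 were higher and 2 lower (median 0.25), with Col4a1 up by 1.66 ± 0.25 and Lamc1, a laminin chain, up by 0.64 ± 0.14.

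In lists of the secretory pathway, which carries the matrix out of the cell, the medians were smaller. Of 35 genes of entry into the endoplasmic reticulum and folding, 13 were higher and none lower (median 0.31). Of 30 genes of N-glycosylation 13 were higher and none lower (median 0.45), and of 30 genes of COPI and COPII vesicle transport 8 were higher and 1 lower (median 0.29, and 4 or 5 higher without any 1 Sham library). Sec61b, a subunit of the translocation pore, rose from 7.85, 5.92 and 7.89 CPM to 24.5 to 52.0 CPM (median 27.6), by 2.14 ± 0.27. Stt3a, the catalytic subunit of oligosaccharyltransferase, rose by 1.08 ± 0.15, from 52.1, 46.0 and 52.5 CPM to 88.7 to 133 CPM (median 103). Copg1, a coat subunit, rose by 0.77 ± 0.15, whereas Sar1b, a small GTPase of COPII coats, fell by 0.82 ± 0.15, from 128, 139 and 172 CPM to 67.4 to 94.9 CPM (median 85.4). In the stress-response list of the same compartment 14 of 26 were higher and 1 lower (median 0.62), led by Edem1, which sends misfolded glycoproteins to degradation and rose by 1.94 ± 0.19, and by Atf3, an immediate stress transcription factor, which rose by 3.09 ± 0.35.

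Most actin genes and fewer tubulin genes of the cytoskeleton were higher. Of 30 actin and Arp2/3 genes 24 were higher and 1 lower (median 1.27). Actg1, cytoplasmic gamma actin, went from 184, 188 and 168 CPM to 527 to 925 CPM (median 663), by 1.93 ± 0.20. Coro1a, an actin regulator of blood cells, rose by 3.37 ± 0.35. Of 24 tubulin and chaperonin genes 11 were higher and none lower (median 0.41, and 0.21 without MI 4). Tubb2b and Tubb3, isotypes of beta tubulin, rose by 3.00 ± 0.27 and 4.24 ± 0.48. Of 24 integrin and adhesion genes 13 were higher and none lower (median 0.55, and 8 higher without Sham 3), among them Itga4, the integrin chain of white blood cells, which rose from 3.98, 4.98 and 4.60 CPM to 10.3 to 22.4 CPM (median 19.3).

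Innate immune lists had medians above Sham in all 6 infarcted libraries. Of 32 genes of Toll-like receptor, NF-kB and inflammasome signalling, 25 were higher and none lower (median 1.27), and the list's median in single infarcted libraries was 0.99 to 1.59 above the Sham mean. Tlr13, a receptor for bacterial RNA in phagocytes, rose from 2.25, 1.66 and 3.04 CPM to 16.8 to 37.9 CPM (median 32.0). Casp8, a protease of cell death and inflammation, rose by only 1.71 ± 0.14 but with little spread, from 9.05, 9.64 and 10.0 CPM to 25.9 to 34.5 CPM (median 31.9). Of 25 tested complement genes 12 were higher and 1 lower (median 1.70, and 1.06 without MI 4). C3ar1, the receptor for complement C3a, was up by 3.41 ± 0.26 and C1qb, a chain of C1q, by 3.03 ± 0.29.

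The lysosome list held 19 higher and 1 lower of 35 (median 0.84). Ctss, a protease that prepares antigen for loading, rose from 19.9, 15.5 and 27.1 CPM to 158 to 413 CPM (median 301). Gusb, a lysosomal glucuronidase, rose by 1.96 ± 0.19, and Lgmn, an asparaginyl protease, by 1.95 ± 0.20. Antigen presentation had 17 of 22 members higher and none lower (median 0.98), against 13 in MI and 11 in MI_ART set against the same 3 Sham libraries, although without Sham 2 the number was 10. H2-D1, a class I heavy chain, rose from 168, 149 and 160 CPM to 278 to 518 CPM (median 329). H2-DMa, a class II loading factor, rose by 1.47 ± 0.23. Of 29 interferon-response genes 13 were higher and 1 lower (median 0.45), with Cxcl10, a chemokine for T cells, up by 2.92 ± 0.30 and Irf8, a transcription factor of myeloid cells, up by 2.43 ± 0.24.

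White-cell markers moved beside these lists. All 12 markers of recruited macrophages and monocytes were higher, with a summed level of 58.8 to 88.8 CPM in Sham and 777 to 1790 CPM in infarcted libraries (two-sided exact permutation p = 0.0238, 0.0504 after adjustment over 36 values). Among them, Arg1 and Chil3 stood at no more than 0.406 and 0.230 CPM in Sham. They entered through the infarcted libraries, so their calls add nothing to that count. Of 9 resident macrophage markers 4 were higher and 1 lower. Of 11 neutrophil markers 7 passed the filter on low counts, most of them near 0 in Sham, so they entered through the infarcted libraries and their calls are not counted. The summed level of the 11 was 22.9 to 147 CPM in infarcted libraries and 1.52 and 1.88 CPM in Sham 2 and Sham 3; in Sham 1 the sum was 47.7 CPM, of which Ltf, also a product of airway glands, made 44.9 CPM. Ly6g, a defining neutrophil gene, did not exceed 0.111 CPM in any library. The part of white-cell numbers in the immune lists was not tested.

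**Figure D3:**
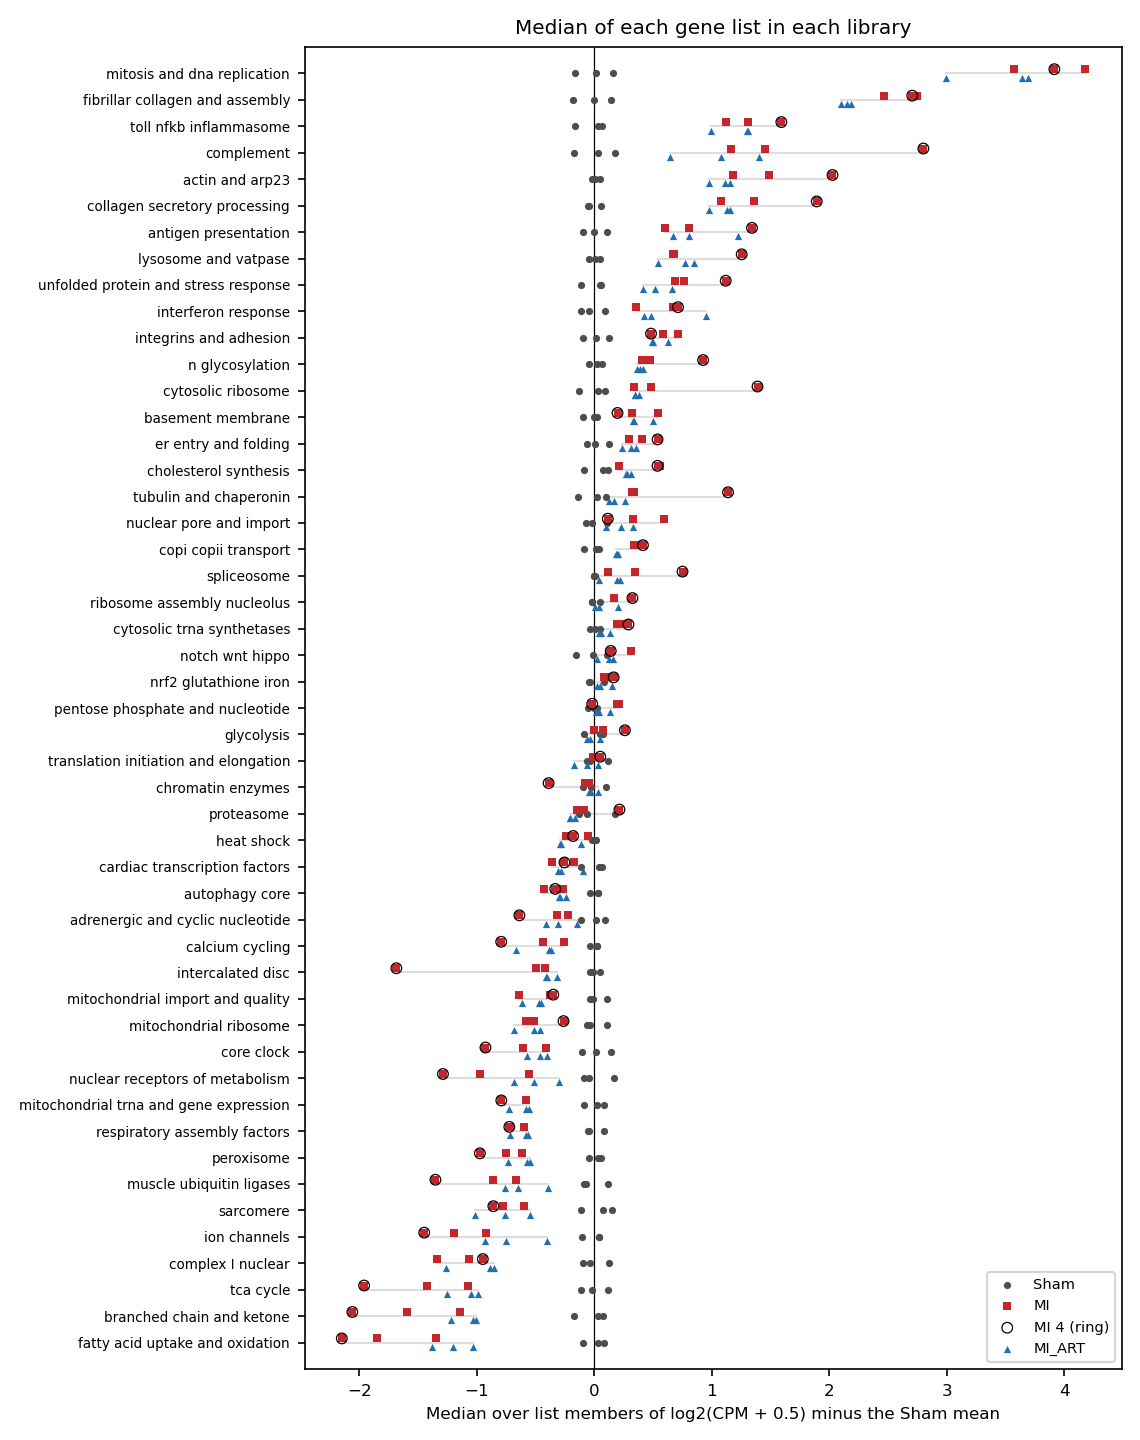
For each of 49 gene lists, the median over members of log2 CPM minus the Sham mean, in each library (circles Sham, squares MI, triangles MI_ART, with a ring around MI 4). Before the log a small prior count scaled to library size was added, not the 0.5 CPM that the axis label names. The lists of cell division and matrix lie farthest to the right and fatty acid oxidation, branched-chain and ketone metabolism and the TCA cycle farthest to the left; MI 4 stands to the right of the other infarcted libraries in the cytosolic ribosome list.

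Genes of cell division rose almost without exception: 38 of 40 were higher and none lower (median 3.78). Ccnb1, the mitotic cyclin B1, rose from 0.387, 0.316 and 0.172 CPM to 12.2 to 21.7 CPM (median 15.1), by 5.82 ± 0.36. It passed the filter on low counts through the infarcted libraries, so its call adds nothing to that count. Other members as low in Sham share this limit. Mki67, the standard proliferation marker, rose from 2.71, 1.18 and 1.42 CPM to 40.8 to 90.1 CPM (median 56.8). Chromatin enzymes did not share one direction: 7 of 34 were higher and 5 lower (median -0.07, and 0.72 under total counts), and 1 was lower without any 1 Sham library and 3 without MI 2, MI 3 or MI_ART 1. The higher ones included Uhrf1 and Dnmt1, which copy DNA methylation at replication and rose by 4.42 ± 0.39 and 1.27 ± 0.18, and Ezh2, the methyltransferase of Polycomb repressive complex 2, which rose by 1.11 ± 0.18.

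The nuclear transport list had 9 of 31 members higher and none lower (median 0.30), and 4 or 5 higher without any 1 Sham library. Rangap1, the GTPase activator that gives nuclear transport its direction, rose by 1.22 ± 0.22, and Nup50, a nucleoporin, by 0.73 ± 0.17. Splicing factors mostly did not pass: 4 of 34 were higher and 2 lower (median 0.30), shares below the 18.5% and 14.3% of all genes. The number higher was 1 or 2 without MI 3, MI_ART 1 or any 1 Sham library and 7 without MI 4 or MI_ART 2, and the number lower was 1 without any 1 Sham library and 4 without MI 4. Prpf19, a scaffold and ubiquitin ligase of the spliceosome, was one of the 2 that fell, from 258, 285 and 287 CPM to 117 to 164 CPM (median 152), by 0.93 ± 0.14.

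The number of cytosolic ribosomal proteins that passed moved with the libraries used. Of 48 cytosolic ribosomal proteins 8 were higher and none lower (median 0.60), yet 34 had all infarcted libraries above Sham. In MI 4 the list's median lay 1.39 above the Sham mean, and in the other 5 infarcted libraries 0.34 to 0.48. Without MI 4 the median fell to 0.38 while the number called rose to 32; it was 14 without MI_ART 2 and 1 to 3 without any 1 Sham library. Against the same Sham libraries 29 were called in MI and 1 in MI_ART. Rpl3, a large-subunit protein, rose from 173, 132 and 154 CPM to 351 to 816 CPM (median 392), by 1.61 ± 0.29. Eef1a1, the elongation factor that delivers transfer RNA to the ribosome, rose by 1.37 ± 0.22.

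Other translation lists were mixed. Of 30 initiation and elongation genes 4 were higher and 3 lower, with a median of -0.06 that turned to 0.74 under total counts; the number lower was 0 without Sham 1 and 1 without Sham 2, MI 2, MI 3 or any 1 MI_ART library. Of 30 ribosome assembly genes 4 were higher and 3 lower (median 0.17), with 1 or 2 higher without MI 3 or any 1 Sham library, 7 higher without MI_ART 2, none lower without Sham 1 or Sham 2, and 1 lower without Sham 3 or MI_ART 3. Among them were Nhp2, an RNA-modifying small ribonucleoprotein, up by 1.31 ± 0.29 and Polr1a, the large subunit of RNA polymerase I, down by 0.56 ± 0.14, a call lost without Sham 1 or Sham 2 (adjusted p up to 0.072). Of 20 cytosolic transfer RNA synthetases 5 were higher and 3 lower (median 0.21). There were 1 or 2 higher without MI 3, MI_ART 1 or any 1 Sham library, none lower without Sham 3 and 1 lower without Sham 1 or MI_ART 2. Gars was up by 0.53 ± 0.13 and Farsb down by 0.49 ± 0.12, a call lost without Sham 3 (adjusted p = 0.059). Of 38 proteasome genes 1 was higher and 4 were lower, with a median of -0.10 that turned to 0.71 under total counts. Without Sham 3 none was lower, and without MI 4 10 were. The higher one was Psmb8, the interferon-induced catalytic subunit, which rose from 11.3, 10.5 and 14.1 CPM to 18.9 to 44.5 CPM (median 22.9) and lost its call without Sham 2 (adjusted p = 0.053).

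Nuclear genes for mitochondria were mostly lower. Of 36 nuclear subunits of complex I, the NADH dehydrogenase of the respiratory chain, 35 were lower and none higher (median -1.04), against 14.3% of all genes lower. Ndufa9, a subunit of its hydrophilic arm, fell from 539, 555 and 645 CPM to 197 to 283 CPM (median 240), by 1.27 ± 0.15. Ndufv2, an iron-sulphur subunit, fell by 1.20 ± 0.15. Of 43 assembly factors of the respiratory complexes 34 were lower and none higher, with a median of -0.66 that turned to 0.14 under total counts, against 30 in MI and 24 in MI_ART set against the same Sham libraries. Foxred1, an assembly factor of complex I, fell from 68.6, 85.5 and 74.1 CPM to 30.5 to 42.6 CPM (median 36.4), by 1.08 ± 0.14.

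Lists of the machinery that makes and imports mitochondrial proteins had medians nearer to 0. Of 46 mitochondrial ribosomal proteins 29 were lower and none higher, with a median of -0.52 that turned to 0.29 under total counts. Here the larger group called more: 18 were called in MI and 22 in MI_ART against the same Sham libraries, and 6 passed with all 6 infarcted libraries and in neither arm alone, namely Mrpl11, Mrpl19, Mrpl21, Mrps2, Mrps14 and Mrps21. Without Sham 3, 17 were lower, and without MI 4, 38 were. Mrps9 fell from 84.2, 93.1 and 102 CPM to 37.4 to 51.3 CPM (median 46.1), by 1.05 ± 0.14, and Mrpl9 by 0.82 ± 0.12.

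Of 35 genes of mitochondrial transfer RNA and gene expression 24 were lower and none higher (median -0.64, and 0.15 under total counts). Tfam, which packages and transcribes mitochondrial DNA, fell from 52.9, 53.8 and 67.3 CPM to 23.4 to 34.2 CPM (median 33.5), by 0.86 ± 0.15. Twnk, the mitochondrial replicative helicase, fell by 0.88 ± 0.15, and Tefm, the mitochondrial transcription elongation factor, by 0.87 ± 0.14. Of 34 genes of mitochondrial protein import and quality control 18 were lower and none higher (median -0.49, and 0.31 under total counts), with Timm23, the inner-membrane import channel, down by 0.91 ± 0.15 and Oma1, a stress-activated protease, down by 0.90 ± 0.15.

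The lowest list medians were those of fuel oxidation. All 22 genes of the TCA cycle and pyruvate entry were lower (median -1.22), as were 30 of 31 genes of fatty acid uptake and oxidation (median -1.40) and 21 of 25 genes of branched-chain amino acid and ketone use (median -1.28). These medians stayed below 0 under total counts, at -0.43, -0.62 and -0.51. Slc25a20, the carrier that brings acylcarnitine into mitochondria, fell from 236, 243 and 258 CPM to 60.5 to 113 CPM (median 89.6), by 1.47 ± 0.18. Bckdhb, a subunit of the branched-chain ketoacid dehydrogenase, fell from 56.0, 72.4 and 60.6 CPM to 13.7 to 26.5 CPM (median 21.2), by 1.60 ± 0.21. Sdhb, a subunit of succinate dehydrogenase, fell by 1.12 ± 0.14 and Mcee, which passes methylmalonyl-CoA on to the TCA cycle, by 1.42 ± 0.16. Of 28 peroxisomal genes 17 were lower and none higher (median -0.66, and 0.14 under total counts), among them Ehhadh, the bifunctional enzyme of peroxisomal oxidation, down by 1.70 ± 0.28.

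Markers of ventricular muscle moved beside the mitochondrial lists: 7 of 9 were lower, and their sum was 10327 to 11267 CPM in Sham and 2309 to 6189 CPM in infarcted libraries, while the sum of 11 atrial markers was 2593 to 9251 CPM in Sham and 1681 to 26026 CPM in infarcted libraries. Adding the ratio of ventricular to atrial light chains as a covariate left 35 of 36 complex I genes, 22 of 22 TCA genes and 29 of 31 fatty acid genes lower. The covariate was the log2 ratio of summed Myl2 and Myl3 to summed Myl7 and Myl4. For Myl2 over Myl7 the log2 ratio was 1.86 to 4.15 in Sham and 9.61 in MI_ART 3. In the other infarcted libraries it was -1.12 to 2.45. A two-sided exact permutation test of Myl2 over Myl7 gave p = 0.714. With MI_ART 3 so far apart, that test cannot say whether the ratio moved with surgery. Neither ratio measures how much muscle a library held. The part of muscle content was not tested.

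Glycolysis genes moved in both directions: 7 of 26 were higher and 8 lower (median 0.14, and 5 lower without Sham 2). Hk3, the hexokinase of white blood cells, rose from 1.31, 0.474 and 1.26 CPM to 10.4 to 27.8 CPM (median 19.5), and Slc16a3, a lactate exporter, rose by 4.52 ± 0.61. Pfkfb1, which sets the level of a glycolytic activator in muscle and liver, fell from 14.6, 20.9 and 15.8 CPM to 3.28 to 6.34 CPM (median 4.04). The pentose phosphate and nucleotide list was split as well, with 6 higher and 7 lower of 25 (3 or 4 lower without MI_ART 2, MI_ART 3 or any 1 Sham library). Its higher members included G6pdx and Pgd, the NADPH-making enzymes, up by 1.61 ± 0.20 and 1.56 ± 0.22, and its lower members included the nucleotide enzymes Dhodh and Ppat, down by 0.81 ± 0.14 and 0.91 ± 0.18. Of 24 cholesterol synthesis genes 6 were higher and 3 lower (median 0.49, with 10 higher without MI 4 and 1 lower without Sham 1), with Sqle up by 1.74 ± 0.34 and Fdft1, the enzyme of the preceding step, down by 1.28 ± 0.28.

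Of 32 genes of the NRF2, glutathione and iron list 10 were higher and 6 lower (median 0.01, and 3 lower without Sham 3). Ftl1, the ferritin light chain that stores iron, rose from 188, 176 and 191 CPM to 715 to 2039 CPM (median 948), with MI 4 highest. The mitochondrial antioxidant enzymes Prdx3 and Sod2 fell, Sod2 from 581, 580 and 629 CPM to 149 to 284 CPM (median 239), by 1.35 ± 0.19. Gpx4, the lipid peroxide reductase that guards against ferroptosis, was at 397, 396 and 444 CPM in Sham and 244 to 430 CPM (median 295) in infarcted libraries, which overlapped (log2 fold change -0.42 ± 0.18, adjusted p = 0.10). Without MI 4 its adjusted p was 0.0036.

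Transcription factors that control metabolism were lower where they passed. Of 23 nuclear receptors of metabolism and their partners 11 were lower and none higher (median -0.64, and 0.11 under total counts), and 7 lower without Sham 1 or Sham 2. Thrb, a thyroid hormone receptor, fell from 23.5, 20.1 and 15.9 CPM to 5.10 to 8.92 CPM (median 7.45), by 1.45 ± 0.22. Nr3c2, the mineralocorticoid receptor, fell from 30.5, 39.8 and 35.6 CPM to 3.44 to 13.5 CPM (median 10.4). Of 17 core clock genes 1 was higher and 9 were lower (median -0.49, and 0.30 under total counts). Hlf and Dbp, clock output factors, fell by 2.04 ± 0.22 and 1.53 ± 0.24, and Per3 fell from 40.6, 67.5 and 64.1 CPM to 13.6 to 25.7 CPM (median 22.2). The hour of tissue collection is not in the labels, so time of day and surgery cannot be told apart for clock genes.

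Protein turnover genes of muscle that passed were lower. Of 20 muscle ubiquitin ligases 12 were lower and none higher (median -0.73, and 0.04 under total counts), and 7 lower without Sham 2. Trim63, the atrophy ligase MuRF1, fell from 151, 164 and 142 CPM to 76.5 to 99.4 CPM (median 84.2), by 0.83 ± 0.13, and Asb14, a muscle-specific ligase adaptor, by 2.02 ± 0.40. Of 29 core autophagy genes 12 were lower and none higher (median -0.35, and 0.45 under total counts), against 9 in MI and 3 in MI_ART set against the same Sham libraries. That count fell to between 4 and 7 without Sham 1, Sham 2, Sham 3, MI 3 or MI_ART 1. Atg10, an enzyme of autophagosome conjugation, fell from 25.7, 23.8 and 30.1 CPM to 9.46 to 14.4 CPM (median 12.6). Map1lc3a, a lipidated marker of autophagosomes, fell by 0.87 ± 0.21.

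Heat shock genes were split: 3 of 26 were higher and 7 lower, with a median of -0.18 that turned to 0.60 under total counts. Hspa1b, the inducible cytosolic chaperone, rose from 2.64, 3.06 and 2.41 CPM to 6.47 to 8.06 CPM (median 7.10), by 1.42 ± 0.17. Hspa9, the mitochondrial chaperone, fell from 760, 841 and 849 CPM to 207 to 436 CPM (median 407). Hspb8, a small chaperone of muscle, fell by 0.75 ± 0.14. The lower count was 4 without any 1 of Sham 1, Sham 2, Sham 3, MI 3, MI_ART 1 or MI_ART 3.

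Contractile genes fell in part. Of 33 sarcomere genes 18 were lower and none higher (median -0.78, and 0.03 under total counts). Tcap, which anchors titin at the Z disc, fell from 2143, 2224 and 2384 CPM to 488 to 919 CPM (median 606), by 1.76 ± 0.21, and Tnni3, cardiac troponin I, by 1.41 ± 0.18. Ttn, titin itself, was at 4333, 2867 and 4546 CPM in Sham and 178 to 2358 CPM (median 1404) in infarcted libraries; these did not overlap, yet its adjusted p was 0.068, and 0.0045 without MI 4, the lowest library. Of 28 calcium cycling genes 3 were higher and 12 lower (median -0.45, and 0.31 under total counts), with 6 lower without Sham 1, Sham 2 or MI 3. The number higher was 1 without Sham 1, Sham 3 or MI_ART 1 and 5 without MI 4 or MI_ART 2. Hrc, a calcium-binding protein of the sarcoplasmic reticulum, fell from 827, 779 and 817 CPM to 81.8 to 269 CPM (median 206), and Trdn, triadin of the calcium release complex, fell by 1.41 ± 0.25.

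Of a panel of 18 genes of atrial load and rhythm, 4 passed and 14 did not. Nppb, the wall-stress peptide BNP, rose from 34.3 CPM in Sham 2 and up to 85.8 CPM in the others to 135 to 599 CPM (median 317), by 2.33 ± 0.50 (adjusted p = 0.0050). Kcnj5, a subunit of the acetylcholine-gated potassium channel, fell from 103, 65.2 and 71.4 CPM to 25.7 to 48.9 CPM (median 37.1), by 1.09 ± 0.21. Atp2a2, the calcium pump SERCA2, fell from 12065, 13642 and 11538 CPM to 1354 to 6846 CPM (median 5066), by 1.46 ± 0.38 (adjusted p = 0.014, and 0.051 without Sham 2). Ryr2, the calcium release channel, fell by 1.02 ± 0.36 at an adjusted p of 0.049, which passed in 1 of 9 fits that left out a library, the one without MI 4, and ranged there from 0.0020 to 0.15.

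For the others the libraries of both surgeries overlapped, apart from Ttn. Nppa, the atrial peptide ANP, was at 4872, 1177 and 3972 CPM in Sham and 1293 to 20599 CPM (median 10604) after infarction, a wide spread that left a log2 fold change of 1.51 ± 0.79 (adjusted p = 0.17). Its lowest values came from libraries low in the atrial light chain Myl7. Nppa and Myl7 stood at 1177 and 168 CPM in Sham 2, 2313 and 173 CPM in MI_ART 1, and 1293 and 1.96 CPM in MI_ART 3. No leave-one-out fit called Nppa, nor did the fit with the light-chain covariate. The part of atrial muscle content in Nppa was not tested. Kcnj3, the partner of Kcnj5, had a change of -1.30 ± 0.52 (adjusted p = 0.078), Cacna1c, which forms the pore of the L-type calcium channel, -0.84 ± 0.47 (adjusted p = 0.20) and Gja1, connexin 43, -0.49 ± 0.31 (adjusted p = 0.24). Gja5, connexin 40, was at -0.01 ± 0.47, with an adjusted p above 0.9. The transcription factor Tbx5 had a change of -0.41 ± 0.38, the pacemaker channel Hcn4 -0.93 ± 0.41, the potassium channel Kcna5 -0.54 ± 0.27, the sodium-calcium exchanger Slc8a1 0.12 ± 0.31 and the slow myosin Myh7 -0.11 ± 0.21, none past the threshold with all 9 libraries. Calls appeared without MI 4 for Hcn4 (adjusted p = 0.0065), without MI_ART 3 for Kcna5 (0.019), and without MI 4 or MI_ART 2 for Kcnj3 (0.039 and 0.026).

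In the wider ion channel list 18 of 35 were lower and 2 higher (median -0.84). Kcnj8, a pore of ATP-sensitive potassium channels, fell from 42.8, 44.9 and 42.4 CPM to 12.1 to 22.8 CPM (median 20.2), by 1.22 ± 0.21. Scn4b, a sodium channel beta subunit, fell from 47.0, 58.9 and 47.2 CPM to 2.39 to 18.4 CPM (median 11.5), by 2.30 ± 0.44. Of 33 genes of adrenergic and cyclic nucleotide signalling 5 were higher and 9 lower (median -0.30, and 0.50 under total counts; 4 or 5 lower without Sham 1 or Sham 2 and 3 higher without Sham 3), with Pde1a, a phosphodiesterase, up by 1.11 ± 0.15 and Prkaca, the catalytic subunit of protein kinase A, down by 0.73 ± 0.16. Intercalated disc genes had 6 of 23 lower and none higher (median -0.46, and 0.32 under total counts), with 3 lower without Sham 1 and 10 lower without MI 4, whose list median lay at -1.68 against -0.49 to -0.31 in the other infarcted libraries. Dsg2, a desmosomal cadherin, fell from 118, 109 and 136 CPM to 17.1 to 62.8 CPM (median 51.2).

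Errors were smaller in the larger group, as more libraries of similar spread must make them. The median SE of a log2 fold change was 0.283 with 6 against 3 and 0.310 in each comparison of 3 against 3, and the smallest called change was 0.34, against 0.39 in MI and 0.45 in MI_ART. The number of calls was 6337 in all (32.8%), with 3571 higher and 2766 lower. MI against Sham alone called slightly more in each direction, 3631 higher (18.8%) and 2768 lower (14.3%). MI_ART against Sham called fewer, 2488 higher (12.9%) and 1433 lower (7.41%). Of the 6337 genes, 3731 were also called in both arms, 1944 in MI only and 149 in MI_ART only. In a fit with 3 group means, the form used for the arms, the mean of MI and MI_ART against Sham gave 3546 higher and 2889 lower. These comparisons share the 3 Sham libraries. The median absolute log2 fold change was 0.57 with 6 against 3, 0.68 in MI and 0.51 in MI_ART.

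Of all tested genes 513 (2.65%) passed with 6 infarcted libraries and in neither arm alone, 210 higher and 303 lower. Their median absolute log2 fold change was 0.69, against 1.20 over all called genes, and 330 of them lay under 1, of which 93 were higher and 237 lower. They made up 43.2% of called higher genes and 47.8% of called lower genes below a change of 0.5, and 6.72% and 10.5% between 0.5 and 1. Above a change of 3 they made up 6.73% of the higher genes and 21.2% of the lower ones (7 of 33). In 363 of them all infarcted libraries lay on the same side of Sham. By construction such genes lie near the threshold in the smaller comparisons.

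**Figure D4:**
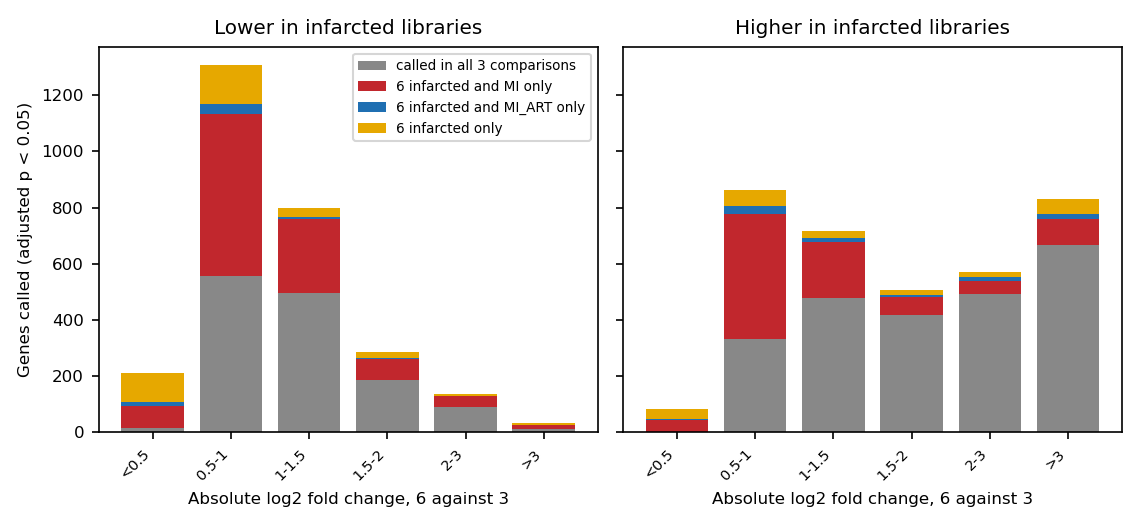
Number of genes called with 6 infarcted against 3 Sham libraries, by absolute log2 fold change, for lower genes (left) and higher genes (right), coloured by the comparisons of 3 against 3 in which they were also called. Genes called with 6 libraries only make up 100 of 209 lower and 35 of 81 higher genes in the smallest size class.

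The small changes with the smallest p values, among genes with a mean of at least 20 CPM and no overlap, were chosen by that same test, so their values describe the choice. B2m, the light chain of class I molecules, was at 322, 254 and 417 CPM in Sham and 432 to 564 CPM (median 518) after infarction, a log2 fold change of 0.61 ± 0.18 (adjusted p = 0.024). Kpnb1, importin beta, which carries cargo into the nucleus, was at 124, 124 and 127 CPM in Sham and 140 to 207 CPM (median 172), a change of 0.48 ± 0.15. App, the amyloid precursor protein, was at 122, 121 and 150 CPM in Sham and 168 to 316 CPM (median 196), with MI_ART 1 highest. Sham libraries of Kpnb1 were almost level, whereas those of B2m spread widely and its highest Sham library lay close under the lowest infarcted one. Setdb1, a histone H3 lysine 9 methyltransferase, rose by 0.45 ± 0.14, and Ascc2, of the complex that rescues stalled ribosomes, by 0.43 ± 0.13.

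On the lower side, Mtpap, the mitochondrial poly(A) polymerase, was at 25.8, 27.7 and 32.4 CPM in Sham and 15.5 to 23.0 CPM (median 19.2) after infarction, a log2 fold change of -0.54 ± 0.15 (adjusted p = 0.020). Hagh, the glyoxalase that completes the removal of methylglyoxal, was at 53.3, 53.9 and 59.9 CPM in Sham and 38.7 to 46.1 CPM (median 41.7), a change of -0.41 ± 0.12. Both genes had infarcted libraries in a narrow band below Sham. A pair of proteasome genes fell as well: Psmc6, an ATPase of the base, by 0.55 ± 0.16 and Psme1, a subunit of the PA28 activator, by 0.53 ± 0.15. Adsl, an enzyme of purine synthesis, fell by 0.51 ± 0.15, Usp47, a deubiquitinase, by 0.45 ± 0.13, and Fbxo9, a ubiquitin ligase subunit, by 0.49 ± 0.14. Dpep1, a membrane dipeptidase, fell by 0.68 ± 0.20. Under total counts every one of the 10 lower genes except Fam220a turned to a positive value, and across the 20 small-change genes the call held in 3 to 8 of the 9 fits that left out 1 library.

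**Figure D5:**
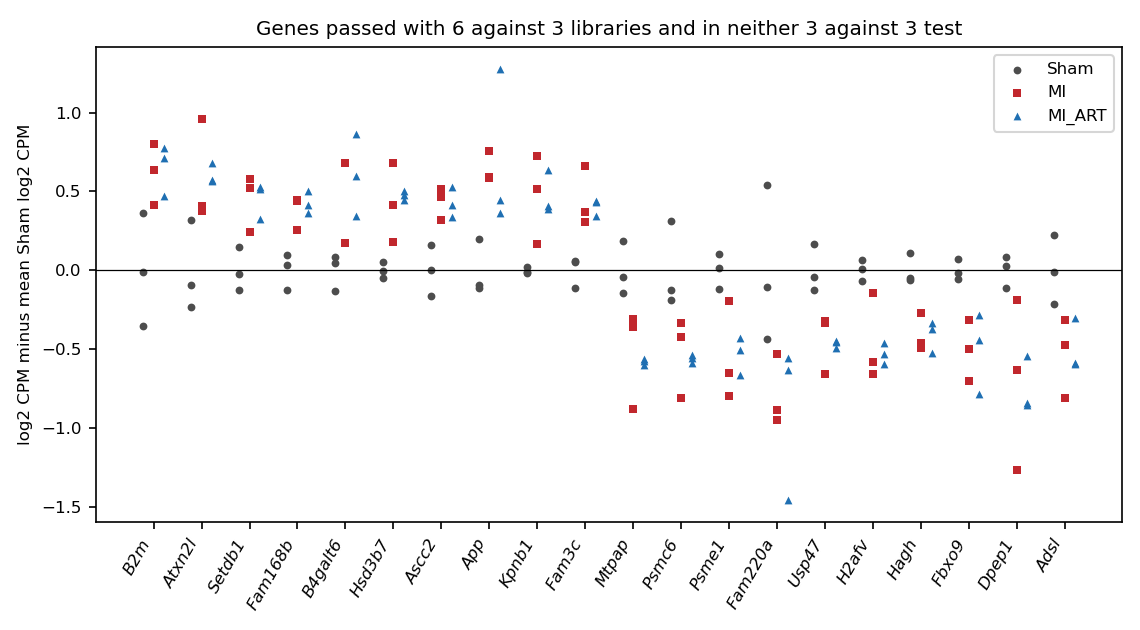
Log2 CPM minus the mean Sham log2 CPM in each library (circles Sham, squares MI, triangles MI_ART) for the 20 small-change genes that passed with 6 against 3 libraries and in neither comparison of 3 against 3. The 10 on the left lie above Sham in all 6 infarcted libraries and the 10 on the right lie below it.

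Some genes passed in an arm and not with all 6 infarcted libraries. Of genes called in MI against Sham 724 did not pass with 6 against 3, and of those called in MI_ART 41 did not. Set directly against MI, the MI_ART libraries differed in 2 genes (0.0103% of those tested), both lower, with 1346 genes at an unadjusted p under 0.05 (6.96%) and 51 called by DESeq2. Slc39a9, a zinc transporter of the Golgi, was at 29.9, 30.2 and 31.2 CPM in Sham, at 37.1, 37.5 and 28.1 CPM in MI and at 5.08, 5.49 and 7.03 CPM in MI_ART. Every MI_ART library lay far below both other groups, with a log2 difference from MI of -2.54 ± 0.19 (adjusted p = 0.0028), while the 6 against 3 comparison gave -0.60 ± 0.64 (adjusted p = 0.51). Tnnt3, troponin T of fast skeletal muscle, was at 0.774, 0.671 and 0.421 CPM in Sham, at 21.8, 33.1 and 63.5 CPM in MI and at 2.42, 2.80 and 1.29 CPM in MI_ART. It passed with 6 against 3 (5.06 ± 1.40, adjusted p = 0.018) although the infarcted libraries spanned a wide range, and it lost the call without any 1 Sham library.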

How the data were processed

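RNA sequencing counts of 9 mouse libraries were used: 3 Sham, 3 MI and 3 MI_ART. The values deposited by the authors are raw read counts for each Ensembl gene. HISAT, featureCounts 1.5.0-p3 and DESeq 1.8.3 are named in the submitters' processing notes, with GRCm38 as the genome. Whether counting used strand, or reads that map to several places, is not stated in the sources used here, so overlapping genes and near-identical copies are uncertain. The table held 55421 genes, and the 9 per-sample files equalled its columns exactly. Total counts ran from 68046341 to 83685313 per library, where 3 counts correspond to 0.0322 to 0.0592 CPM (counting error only).

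The fit used edgeR 4.0.16 in R 4.3.3: filterByExpr on both surgeries (19326 genes kept), TMM factors, 1 mean per surgery and quasi-likelihood F tests, with a Benjamini-Hochberg adjusted p under 0.05 over all tested genes. Every adjusted p given without another tool's name is from edgeR, and a standard error (SE) is the log2 fold change over the root of F. The arms were tested in a fit with 3 group means. Single values per library had two-sided exact permutation tests over all 84 splits. The procedure was tested on simulated data. Alternatives were DESeq2 1.42.0, limma 3.58.1 (voom), other scalings, filters, libraries, a replicate block and a chamber covariate. CPM are over the TMM-scaled library size.

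Named genes are a panel of 18; the called, non-overlapping genes with the 10 most extreme folds or smallest p values in each direction; the 10 small changes (log2 under 1, mean of at least 20 CPM, not called in either arm) in each direction; and up to 4 called members per list with the smallest p. The members and the 49 gene lists and 24 marker lists were chosen with earlier results of these data known. Coordinates are RefSeq's for GRCm38. Promoter sequences were not used here. Some genes picked by the naming rule are left out of the text, and counts over lists and the panel include them.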

Additional observations from a re-analysis of the deposited data

Results flagged for a closer look

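In 37 of 248 values (14.9%), the gap between 1 of the 6 infarcted libraries and the next was past Dixon's 95% limit. For normally distributed values of 1 group, chance alone would pass about 1 group in 20. Most values here are CPM without a log, and all share the same 6 libraries from 2 arms, so that rate is no yardstick for the 14.9%. MI 4 was the library apart in 28 of them, MI_ART 3 in 4, MI_ART 1 in 3, and MI_ART 2 and MI 3 in 1 each.

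MI 4 held the highest summed markers of endocardium (429 CPM, next 190) and of B and plasma cells (210 CPM, next 101). In the endocardium sum Plvap and Vwf made 200 and 189 CPM, whereas Npr3 was at 17.4 CPM, below every Sham library. It had the highest list medians for cytosolic ribosome (1.39, next 0.48), tubulin and chaperonin (1.14), N-glycosylation (0.93) and proteasome (0.22), and the lowest for intercalated disc (-1.68, next -0.49) and chromatin enzymes (-0.39). Among genes that MI 4 topped were those of matrix secretion, with Adamts2 at 140 CPM, Bmp1 at 205 CPM, P4ha3 at 19.5 CPM, Sec61b at 52.0 CPM and Sfrp1 at 140 CPM. It was also highest for Sprr1a (396 CPM), Coro1a (135.0 CPM), Tubb3 (41.6 CPM), Psmb8 (44.5 CPM), Rpl3 (816 CPM), Nhp2 (59.9 CPM), Slc16a3 (76.4 CPM), Ftl1 (2039 CPM), Krt18 (24.0 CPM) and H2afv (38.7 CPM). It was lowest for the mitochondrial genes Tfam (23.4 CPM) and Hspa9 (207 CPM), the muscle genes Trdn (70.4 CPM) and Gja1 (168 CPM), and the vessel gene Tek (29.4 CPM).

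MI_ART 3 had the highest log2 ratio of Myl2 to Myl7 (9.61, next 2.45), and the highest Pfkfb1 (6.34 CPM), Kcna5 (9.43 CPM) and Rgcc (23.9 CPM). MI_ART 1 had the highest Hpca (14.6 CPM), App (316 CPM) and sum of the liver marker list (25.9 CPM, next 1.95 CPM). Of that sum Ttr made 25.8 CPM, while Alb was at 0.0494 CPM, so it rests on 1 gene and not on the list. MI_ART 2 was highest for Inmt (6.26 CPM) and MI 3 for Fam3c (26.1 CPM).

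Within the infarcted group the 2 arms differed at Slc39a9, with a log2 fold change of -2.54 ± 0.19 in MI_ART against MI (edgeR adjusted p = 0.0028, lower in 3 of 3 libraries), and at Tnnt3, with -4.18 ± 0.46 (adjusted p = 0.045, lower in 3 of 3).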

How the results depend on the processing

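Scaling had the widest effect. Under total counts 9898 genes were higher and 383 lower, 6371 and 100 past 1.5-fold, and 9263 and 536 without overlap; without mitochondrially encoded genes in the totals 6163 and 1039 were called, and 3470 and 239 past 1.5-fold. Limma voom called 4156 lower. Under RLE or upper-quartile factors, DESeq2, 3 group means, either filter and the chamber covariate, both counts of calls stayed within 1.5 times of the reported ones. Genes called with 6 libraries only numbered 503 with DESeq2, 576 with each comparison on its own libraries and 440 under total counts.

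Leaving out 1 library gave 2682 to 4081 higher and 1765 to 3571 lower genes, the lowest without Sham 3 and the highest without MI 4. Past 1.5-fold it gave 1576 to 2185 higher and 375 to 1113 lower, with 375 without Sham 3, 490 without Sham 2 and 542 without Sham 1. Without overlap it gave 4077 to 4563 above and 3596 to 4180 below, and with 6 libraries only 376 to 710 (an alternative chosen after seeing the data). Without MI 4 and MI_ART 3 together 3806 were higher and 3301 lower.

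The numbers in the titles showed no clear pairing. Residuals of 7 same-numbered pairs correlated at -0.035 to 0.093 (median 0.042), and those of 20 different-numbered pairs at -0.12 to 0.11 (median -0.017). So few pairs cannot decide whether the libraries were paired. With the replicate block 3917 genes were higher and 3356 lower, and the median of chromatin enzymes was 0.00059. The block also raised the higher cytosolic ribosome genes from 8 to 31, the lower proteasome genes from 4 to 12 and the lower intercalated disc genes from 6 to 11. Only MI 4 carries the number 4, so the block gives it a term of its own and takes it out of the contrast. Leaving out MI 4 gave 32, 10 and 10 for these lists.

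Among lists with at least 8 calls, cytosolic ribosome had 34 higher with voom, 22 with DESeq2 and 15 with 3 group means. Voom called 14 COPI and COPII genes higher (8 as reported), 14 nuclear import (9) and 11 spliceosome genes (4), and 12 proteasome (4), 13 intercalated disc (6) and 8 cardiac transcription factor genes (1) lower. With no filter 5 autophagy (12), 6 calcium cycling (12) and 5 adrenergic genes (9) were lower.

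Under total counts these log2 fold changes turned positive: Hspb8 0.044, Prkaca 0.046, Dpep1 0.12, Flt1 and Ly6c1 0.16, Polr1a 0.21, Slc39a9 and Tek 0.23, Adsl, Kcna5, Mtpap and Psmc6 0.26, Psme1 0.27, Fbxo9 0.29, Gja1 0.30, H2afv 0.31, Farsb 0.32, Usp47 0.35, Tbx5 0.38, Gpx4 and Hagh 0.39, Myh7 0.67 and Gja5 0.80. So did the medians of sarcomere 0.027, muscle ubiquitin ligases 0.040, nuclear receptors 0.11, peroxisome and assembly factors 0.14, mitochondrial gene expression 0.15, mitochondrial ribosome 0.29, core clock 0.30, calcium cycling and mitochondrial import 0.31, intercalated disc 0.32, autophagy 0.45, cardiac transcription factors 0.46, adrenergic signalling 0.50, heat shock 0.60, proteasome 0.71, chromatin enzymes 0.72 and translation factors 0.74. With mitochondrially encoded genes left out of the totals, autophagy was at 0.046, cardiac transcription factors 0.069, adrenergic signalling 0.095, heat shock 0.20, proteasome 0.30, chromatin enzymes 0.33, translation factors 0.34, Myh7 0.28 and Gja5 0.38. Gja5, close to 0, also changed sign, to 0.0010 with DESeq2 and with RLE factors, 0.028 with no filter, 0.14 without MI 4 and MI_ART 3, and -0.27 to 0.37 with 1 library left out. The median of translation factors ran from -0.11 to 0.038 with 1 library left out (0.038 without Sham 3), and the NRF2 list -0.00019 with at least 1 CPM in 3 libraries. The cause was not tested.

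The promoter motif description was not run, since no promoter sequences were at hand.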

Other observations

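Markers of vessels and epicardium fall outside the lists described above. The genes named here from marker lists were chosen after their values were seen. Of 14 markers of blood endothelium 5 were lower and none higher: Rgcc, a cell cycle regulator of endothelium (-1.10 ± 0.18), Fabp4, the fatty acid carrier of capillaries (-0.81 ± 0.16), Ly6c1 (-0.65 ± 0.15), Flt1, a VEGF receptor (-0.63 ± 0.14), and Tek, the angiopoietin receptor (-0.57 ± 0.19). Tek kept its call in 3 of 9 fits that left out 1 library (adjusted p up to 0.14). The 14 markers' summed level was 1841 to 2021 CPM in Sham and 1210 to 1628 CPM in infarcted libraries. Of 12 markers of pericytes and smooth muscle 1 was higher and 3 lower (median -0.04), with Abcc9, a potassium channel subunit, lower by 1.77 ± 0.38 and Rgs5 lower by 1.15 ± 0.27 on the log2 scale.

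Of 12 markers of epicardium and mesothelium 5 were higher and none lower (median 0.81). Aldh1a2, which makes retinoic acid, rose by 2.33 ± 0.22, and the keratins Krt8, Krt18 and Krt19 rose by 2.83 ± 0.58, 1.92 ± 0.38 and 2.14 ± 0.58. Upk1b, a uroplakin of mesothelium, rose by 1.61 ± 0.43. Without Sham 2 the calls of Upk1b (adjusted p = 0.070) and Krt19 (0.074) were lost, and that of Krt19 also without Sham 3 (0.077). The summed level of these markers overlapped narrowly, at 282 to 463 CPM in Sham and 400 to 866 CPM in infarcted libraries (two-sided exact permutation p = 0.048, 0.090 after adjustment over 36 values).

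Of 34 Notch, Wnt and Hippo genes 8 were higher and 2 lower (median 0.19), beside 18.5% and 14.3% of all genes, and 5 were higher without Sham 3; the number lower was 0 without Sham 1, Sham 2 or MI 2, 1 without Sham 3, MI 3 or any 1 MI_ART library and 4 without MI 4. Sfrp2 and Sfrp1, secreted Wnt antagonists of fibroblasts, rose by 3.28 ± 0.32 and 1.76 ± 0.29. Fzd1, a Wnt receptor, rose by 1.07 ± 0.19, and Notch4, a Notch receptor of endothelium, by 1.07 ± 0.23. Cardiac transcription factors rarely passed, with 2 of 28 higher and 1 lower (median -0.32, and 0.46 under total counts). With 1 library left out 1 or 2 were higher and 0 to 4 lower.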
